A study of Mus musculus with 16 samples.

Results

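Metals enter and leave animal cells through dedicated carriers, and the genes of those carriers were followed here in cells cut off from amino acids. The set comprised the genes whose symbols start with Slc11a, Slc30a, Slc31a, Slc39a, Slc40a or Slc41a, together with Mt1, Mt2, Mtf1, Tfrc, Fth1 and Ftl1. It held 37 measured genes of the 19938 genes kept from the arrays. Of these, 10 belong to the Slc30 zinc exporter family, 14 to the Slc39 zinc importer family, 2 are iron carriers, 2 copper carriers and 3 magnesium carriers. The other 6 code for metal storage proteins, an iron uptake receptor and a zinc sensor. Slc11a1 was not analysed here.

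The cells were N25/2, an immortalized line derived from mouse embryonic hypothalamus. They were kept in medium with amino acids (control) or in medium without amino acids (deprived) for 1, 2, 3, 5 or 16 h. Whole-transcript arrays were run on 16 samples, 4 control and 4 deprived at 5 h and 1 of each at the other times. N25/2 is a single cell line, and the metal and serum content of the treatment media is not given in the sources used here. Nothing in the labels tells if the 4 samples in each 5 h group had cultures of their own. At 5 h the p-values therefore set each difference against the spread of these samples only, and that spread may be technical.

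Zinc in the cytosol is set by carriers of opposite direction. Slc30 proteins move zinc out of the cytosol, across the plasma membrane or into vesicles, and Slc39 proteins move it in. Free zinc activates the transcription factor Mtf1, which binds metal response elements and raises the metallothionein genes Mt1 and Mt2 and the exporter gene Slc30a1, and which is known to repress Slc39a10. For iron, cells take up transferrin through the receptor Tfrc, store iron in ferritin made of Fth1 and Ftl1 chains, and release it through ferroportin, the product of Slc40a1. Iron regulatory proteins act on the messages of Tfrc, ferritin and ferroportin, mostly through stability and translation, and arrays report message levels and not protein.

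Since Slc30a1, Mt1 and Mt2 are textbook Mtf1 targets, the bases just before their starts are shown, with those of Slc30a4, the other exporter gene that changed. Each sequence is the 250 bases before the annotated start in RefSeq (GRCm38.p6), 5′ to 3′ on the gene's strand. Capitals mark the metal response element core, searched as TGCACNC and TGCGCNC on both strands, so that a site on the other strand reads as GNGTGCA or GNGCGCA.
Slc30a1 (chr1:191906531-191906780, plus strand): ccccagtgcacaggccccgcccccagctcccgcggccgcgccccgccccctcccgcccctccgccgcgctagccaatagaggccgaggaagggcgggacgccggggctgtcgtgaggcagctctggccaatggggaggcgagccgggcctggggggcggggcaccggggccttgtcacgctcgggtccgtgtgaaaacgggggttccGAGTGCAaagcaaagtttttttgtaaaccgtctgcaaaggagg
Mt1 (chr8:94178839-94179088, plus strand): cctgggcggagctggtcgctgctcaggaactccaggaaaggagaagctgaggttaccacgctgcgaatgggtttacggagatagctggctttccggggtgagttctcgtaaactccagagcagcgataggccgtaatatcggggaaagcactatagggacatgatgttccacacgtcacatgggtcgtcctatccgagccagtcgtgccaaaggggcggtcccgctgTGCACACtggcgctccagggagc
Mt2 (chr8:94172368-94172617, plus strand): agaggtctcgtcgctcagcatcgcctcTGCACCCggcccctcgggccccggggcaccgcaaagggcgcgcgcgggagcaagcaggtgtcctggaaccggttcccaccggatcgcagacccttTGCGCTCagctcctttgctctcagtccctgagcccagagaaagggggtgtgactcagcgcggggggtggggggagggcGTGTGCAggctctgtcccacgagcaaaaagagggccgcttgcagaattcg
Slc30a4 (chr2:122702664-122702913, minus strand): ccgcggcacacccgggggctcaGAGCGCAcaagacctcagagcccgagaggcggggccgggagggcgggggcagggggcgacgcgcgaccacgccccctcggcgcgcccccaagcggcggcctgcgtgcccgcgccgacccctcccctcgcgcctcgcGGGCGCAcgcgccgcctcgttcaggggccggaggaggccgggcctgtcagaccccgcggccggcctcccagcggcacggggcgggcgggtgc

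These windows held 1 match for Slc30a1, 1 for Mt1, 3 for Mt2 and 2 for Slc30a4. In the table's full window, which adds 50 bases after the start, the counts were 2, 3, 4 and 3. Slc39a10 had 0 in both of its windows. Slc30a10 had 3, of which 2 overlap, Slc30a2 had 2, and 1 window of Tfrc had 2 that overlap. Slc30a10, Slc30a2 and Tfrc did not pass the test at 5 h. Of all 32851 promoter windows of that length, 25.7 percent held at least 1 such match, 7.11 percent at least 2, 1.97 percent at least 3 and 0.517 percent at least 4. Promoters were listed for 31 of the 37 genes. Slc40a1, Slc11a2, Slc30a8, Slc39a4, Slc39a6 and Slc39a14 had no listed promoter and were not searched. Of the 38 windows listed, 19 (50 percent) held a match, and base composition was not matched in this comparison. The core of the C/EBP-ATF response element, searched as TGATGNAA on both strands, was in none of the 38 windows and in 3.97 percent of all windows. Such letters are matches and not shown sites.

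Log2 levels on the arrays ran from 3.07 to 14.2, and the medians of single arrays from 7.02 to 7.12. Precision is limited by how many arrays there are. In the 7 genes taken as a check of the deprivation (Atf4, Ddit3, Trib3, Asns, Chac1, Sesn2 and Slc7a11), all rose at 5 h, with a median log2 difference of 1.85. Of 8 neuronal markers, Map2 and Eno2 lay above the median gene level of 7.47 and the others, among them Rbfox3 and Snap25, did not, whereas 4 of 5 mesenchymal markers (Vim, Fn1, Col1a1 and Col1a2, not Thy1) did. Of 5 measured hypothalamic markers, Otp and Sim1 lay above it, as did 1 of 5 astrocyte markers (Slc1a3) and 1 of 5 microglia markers (Cx3cr1). None of the markers of 8 cell types passed the test at 5 h. In such bulk samples, fewer cells of a type and less RNA per cell cannot be told apart. Both 5 h arrays numbered 4 stood apart. In 68.1 percent of all genes, array 4 was the outermost array on the same side in both groups. Among the 37 metal genes this held for 29, 12 above and 17 below.

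At 5 h, 3 of the 37 genes (8.11 percent) had an adjusted p below 0.05 in limma and are said to have passed, against 4.11 percent of all genes. The zinc exporter genes Slc30a1 and Slc30a4 rose (2.41 percent of all genes rose), and the zinc importer gene Slc39a10 fell (1.7 percent of all genes fell). The groups did not overlap in these 3 genes and in Slc39a14, 4 of 37, against 10.5 percent of all genes. In 3 of them the deprived arrays were the higher (5.15 percent of all genes) and in 1 the lower (5.38 percent). The median difference of the 37 genes was 0.03, and that of all genes was -0.01. The plot of all 37 differences at 5 h shows most genes close to 0 and a few far from it.

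**Figure D1:**
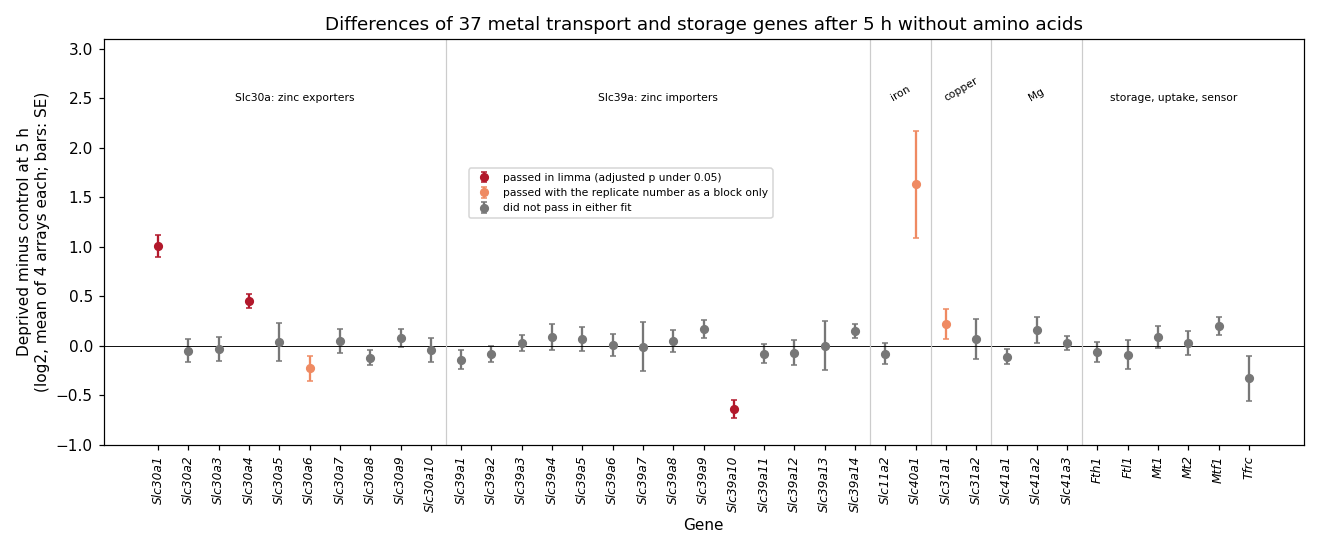
Deprived minus control on the log2 scale at 5 h (vertical axis) for each of the 37 genes (horizontal axis, grouped by metal); points are differences of means of 4 arrays each and bars are the standard error of limma's fit. Slc30a1 (1.01), Slc30a4 (0.45) and Slc39a10 (-0.64) passed, and Slc40a1 (1.63) had the largest difference with the widest bar.

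Slc30a1 codes for the zinc exporter of the plasma membrane. At 5 h its log2 level was 8.11, 7.87, 7.97 and 7.57 on the control arrays. On the deprived arrays it was 8.92, 8.89, 8.81 and 8.93. Every deprived array lay above every control array, and the lowest control value was that of array 4. The rise was 2.01-fold (log2 1.01, SE 0.11, n = 4; adjusted p = 0.00108 in limma), from a mean of 7.88 (SD 0.23) to 8.89 (SD 0.06).

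The course of Slc30a1 over time was unlike that of a gene that climbs from a flat control. On control arrays it was at 9.28 at 1 h, 10.00 at 2 h and 9.32 at 3 h, and at 7.79 at 16 h. On deprived arrays it was at 9.00, 9.84 and 9.20 at 1, 2 and 3 h, and at 8.89 at 16 h. The level in deprived cells at 5 and 16 h thus lay below the 1 to 3 h levels too, but by less than in control cells. From the mean of the 1 to 3 h arrays to the mean at 5 h it moved by -1.65 in control and -0.46 in deprived cells. The deprived cells were lower than control at 1, 2 and 3 h, by 0.28, 0.16 and 0.12, and higher by 1.10 at 16 h, differences of 1 array each that have no replicate check.

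Whether the difference at 5 h exceeded that of the 3 early times was tested in limma over the 14 arrays of 1 to 5 h, a test chosen after the data were seen. For Slc30a1 the 5 h difference was larger by 1.20 (SE 0.15; adjusted p = 0.03). It alone passed among the 37 genes, against 0.176 percent of all genes. The call ended, at sizes of 1.15 to 1.23, without the 1 h arrays (adjusted p = 0.232), without the 2 h arrays (0.164), without control array 2 (0.0852) or 3 (0.0669), without deprived array 1 (0.0947), 2 (0.0728) or 3 (0.0652), and with all rows of the table tested (0.0647). Without both arrays numbered 4 it was 1.08 (adjusted p = 0.00036), and 3 of the 37 genes (8.11 percent) then passed this test, against 2 percent of all genes. For the fits without the 1 h or 2 h arrays, or with all rows tested, the share of all genes that passed is not given here.

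Slc30a4 codes for a zinc carrier of endosomal and secretory vesicles. Its control levels at 5 h were 10.26, 10.32, 10.16 and 10.14, and its deprived levels were 10.67, 10.71, 10.68 and 10.60. The groups were apart with a small spread in each. The rise was 1.36-fold (log2 0.45, SE 0.07, n = 4; adjusted p = 0.00888 in limma). At 1, 2 and 3 h Slc30a4 was at 10.58, 10.33 and 10.13 on control and at 10.69, 10.40 and 10.26 on deprived arrays. At 16 h it was at 10.25 and 10.75, a difference of 0.50. The deprived array was thus the higher of each pair, and the size at 16 h was close to that at 5 h.

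The other 8 Slc30 genes did not pass, with 5 h differences from -0.23 to 0.08. Slc30a6, a zinc carrier of the Golgi, was at 9.71, 9.50, 9.39 and 9.73 in control and at 9.30, 9.24, 9.18 and 9.69 in deprived cells. The deprived array was lower in each same-numbered pair, by 0.40, 0.26, 0.20 and 0.04, but the groups overlapped because array 4 was highest in both. Its difference was -0.23 (SE 0.13; adjusted p = 0.558 in limma). A block for the replicate number let it pass (adjusted p = 0.0449), as did leaving out both arrays numbered 4 (-0.29, adjusted p = 0.0486), within a span of 0.00718 to 0.944 for all alternatives run. At 1, 2 and 3 h Slc30a6 was lower in deprived cells by 0.19, 0.39 and 0.41, and at 16 h it was higher by 0.30.

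Slc30a5, which pairs with Slc30a6 in the early secretory pathway, differed by 0.04 (SE 0.19) at 5 h, and Slc30a7, a further carrier of that pathway, by 0.05 (SE 0.12). Both were highest on array 4 in each group. Slc30a9 differed by 0.08 (SE 0.09) at 5 h and by 0.41 at 16 h. Slc30a10, whose product is known mainly as a manganese exporter, differed by -0.04 (SE 0.12). Slc30a2, Slc30a3, which fills synaptic vesicles with zinc, and Slc30a8, which serves the insulin granule, differed by -0.05, -0.03 and -0.12. Slc30a2, Slc30a8 and Slc30a10 lay below the median gene level, where an array row may hold little signal above background.

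Slc39a10, a zinc importer of the plasma membrane, was the counterpart of Slc30a1 in direction. At 5 h its control levels were 9.17, 9.17, 9.26 and 9.41, and its deprived levels were 8.55, 8.47, 8.67 and 8.75. Every deprived array lay below every control array. The fall was 1.56-fold (log2 -0.64, SE 0.09, n = 4; adjusted p = 0.00433 in limma). Within same-numbered pairs the differences were -0.62, -0.71, -0.59 and -0.65.

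Over time Slc39a10 was at 10.05, 9.72, 9.60 and 9.37 at 1, 2, 3 and 16 h on control arrays and at 10.15, 9.81, 9.23 and 8.80 on deprived arrays. The deprived array was the higher by 0.10 and 0.09 at 1 and 2 h and the lower by 0.37 and 0.57 at 3 and 16 h. The 5 h difference was more negative than that of the early times by 0.58 (SE 0.15), which did not pass (adjusted p = 0.212 in limma) except without both arrays numbered 4 (adjusted p = 0.0331). In control cells too the 5 h mean lay below the mean of the 1 to 3 h arrays, by 0.54. The plot of levels on every array shows these courses beside those of Slc30a4 and Slc40a1.

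**Figure D2:**
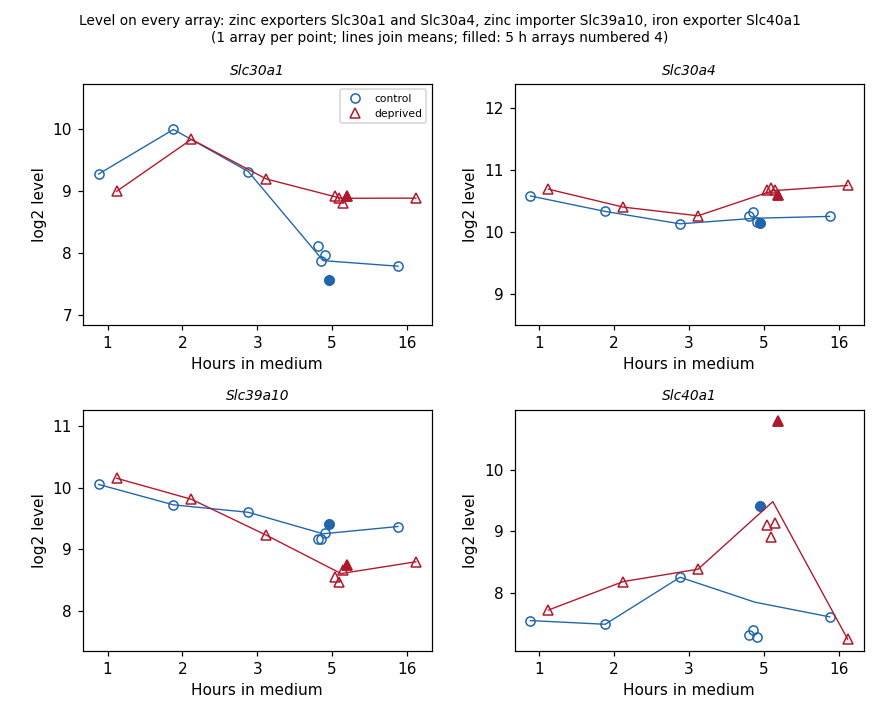
Log2 level on each array (vertical axis, the same span in each panel) against hours in the medium (horizontal axis, evenly spaced) for Slc30a1, Slc30a4, Slc39a10 and Slc40a1; circles are control and triangles deprived arrays, lines join means, and filled points are the 5 h arrays numbered 4. At 5 h the groups are apart for the 3 zinc genes, whereas for Slc40a1 control array 4 (9.41) lies among the deprived arrays.

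None of the other 13 Slc39 genes passed, with 5 h differences from -0.14 to 0.17. Slc39a14, which carries zinc, manganese and iron, was at 8.58, 8.45, 8.50 and 8.60 in control and at 8.71, 8.60, 8.67 and 8.76 in deprived cells, where the groups met at 8.60 without overlapping. Its difference was 0.15 (SE 0.07; adjusted p = 0.403 in limma). Slc39a9, a Golgi importer, differed by 0.17 (SE 0.09; adjusted p = 0.556) and was higher in deprived cells in each same-numbered pair. Slc39a1, a widely expressed importer, differed by -0.14 (SE 0.10). Slc39a6, a relative of Slc39a10 whose product pairs with it, was at 9.91 (SD 0.21) in control and 9.92 (SD 0.06) in deprived cells.

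Slc39a13, a carrier that releases zinc from vesicles and the Golgi, was flat at 5 h and lower at 16 h. At 5 h it was at 10.91, 11.06, 11.19 and 10.37 in control and at 11.21, 10.93, 11.23 and 10.18 in deprived cells, a difference of 0.00 (SE 0.25) with a 95 percent interval from -0.55 to 0.56. Array 4 was the lowest in both groups. At 16 h it was at 11.02 in control and 9.89 in deprived cells, a 2.19-fold difference (log2 -1.13) of 1 array each. The deprived value at 16 h lay below all 15 other arrays. At 1, 2 and 3 h the deprived array was the higher, by 0.22, 0.07 and 0.26.

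Slc39a7, which releases zinc from the endoplasmic reticulum, differed by -0.01 (SE 0.25) at 5 h. Its arrays numbered 4 were at 10.46 (control) and 10.29 (deprived), above the 9.33 to 9.66 of the other 5 h arrays. Slc39a3 and Slc39a11 differed by 0.03 and -0.08. Slc39a2, Slc39a4, Slc39a5, Slc39a8 and Slc39a12 lay below the median gene level, with 5 h differences from -0.08 to 0.09.

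The storage side of zinc showed no change that passed. Mt1 and Mt2 code for metallothioneins, small cysteine-rich proteins that bind zinc and copper. Mt1 was at 12.98, 12.73, 12.77 and 12.49 in control and at 12.81, 12.89, 12.72 and 12.89 in deprived cells at 5 h, and Mt2 at 13.58, 13.59, 13.57 and 13.18 and at 13.56, 13.60, 13.60 and 13.26. The groups overlapped in both genes, and array 4 was lowest in 3 of these 4 groups. The difference of Mt1 was 0.09 (SE 0.11) with a 95 percent interval from -0.15 to 0.32, and that of Mt2 was 0.03 (SE 0.12) with an interval from -0.24 to 0.29. The interval of Slc30a1, from 0.76 to 1.26, met neither of them; the difference between these genes was not tested. Levels near the top of the array's range can understate a change, and whether that applied here was not tested.

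At 1, 2, 3 and 16 h the differences of Mt1 were 0.00, -0.07, 0.08 and 0.05, and those of Mt2 -0.04, -0.15, 0.05 and 0.08. Both were lower at 16 h in either medium (Mt1 at 12.08 and 12.13, Mt2 at 13.05 and 13.13) than on the 1 to 3 h arrays. Mtf1, the zinc-sensing transcription factor, was at 9.18, 8.99, 8.98 and 8.99 in control and at 9.37, 9.28, 9.26 and 9.04 in deprived cells at 5 h. Its difference of 0.20 (SE 0.09) gave an adjusted p of 0.389 in limma and of 0.0565 with the block. The alternatives spanned 0.000866 to 0.785, and the lowest came with array weights. At 16 h Mtf1 was at 8.92 in control and 9.33 in deprived cells.

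**Figure D3:**
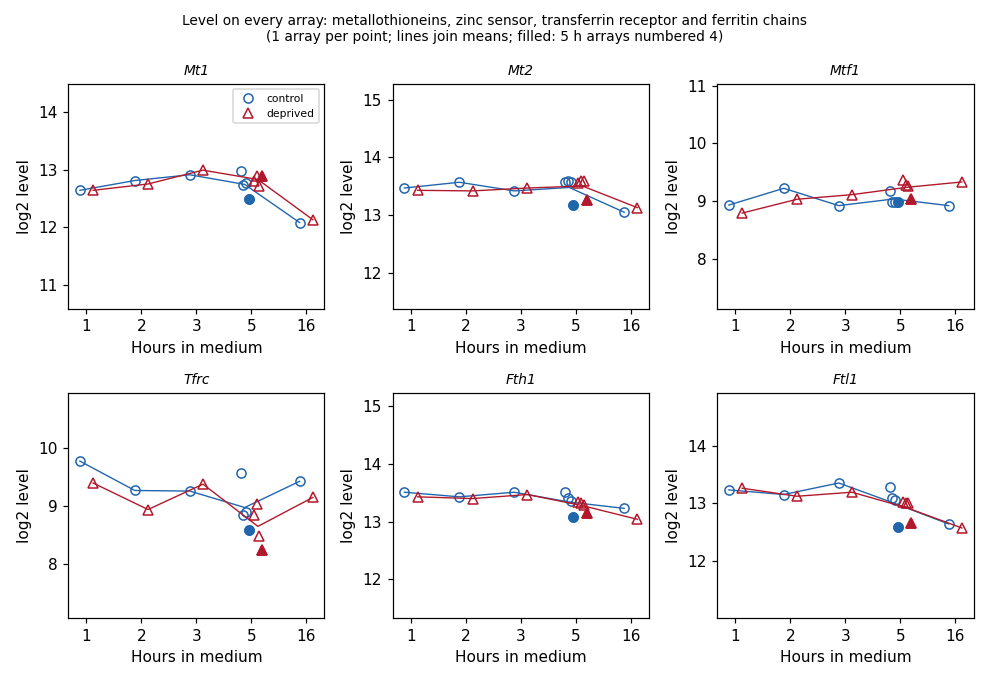
Log2 level on each array (vertical axis, the same span in each panel) against hours in the medium (horizontal axis, evenly spaced) for Mt1, Mt2, Mtf1, Tfrc, Fth1 and Ftl1; circles are control and triangles deprived arrays, lines join means, and filled points are the 5 h arrays numbered 4. Control and deprived arrays overlap at 5 h in each panel, and Mt1, Mt2, Fth1 and Ftl1 are lower at 16 h than at 1 to 3 h in both media.

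Among iron genes the largest difference at 5 h was that of Slc40a1, the only known cellular iron exporter of mammals. Its control levels were 7.33, 7.40, 7.29 and 9.41, and its deprived levels were 9.11, 8.91, 9.13 and 10.78. On both arrays numbered 4 the level was far above that of the other 3 arrays of the group, by 2.07 and 1.73, so the groups overlapped. Within same-numbered pairs the deprived array was higher by 1.78, 1.52, 1.83 and 1.37.

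The difference of Slc40a1 was 1.63 (SE 0.54, n = 4), 3.08-fold, and did not pass in limma (adjusted p = 0.164). With the replicate number as a block it was 1.63 (SE 0.08; adjusted p = 4.11e-07), where 18.2 percent of all genes and 6 of the 37 metal genes (16.2 percent) passed. Of these, 4 were higher and 2 lower, against 8.22 and 10 percent of all genes. Without both arrays numbered 4 it was 1.71 (SE 0.08), 3.27-fold (adjusted p = 3.76e-07), where 13.5 percent of all genes and 5 of the 37 (13.5 percent) passed, 3 higher and 2 lower against 6.34 and 7.17 percent. With array weights 10 of the 37 (27 percent) passed, against 27.5 percent of all genes, 8 higher (13.1 percent of all genes) and 2 lower (14.4 percent). It was 2.14 without control array 4 alone (adjusted p = 0.0106) and 1.19 without deprived array 4 alone (adjusted p = 0.214). The alternatives spanned adjusted p-values of 3.76e-07 to 0.384. The pairing by number rests on the arrays numbered 4, and what set these arrays apart was not tested.

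On the single arrays at the end of the series, Slc40a1 was not higher in deprived cells. At 1, 2 and 3 h it was at 7.56, 7.50 and 8.26 on control and at 7.73, 8.19 and 8.39 on deprived arrays, differences of 0.17, 0.69 and 0.13. At 16 h it was at 7.62 in control and 7.26 in deprived cells, a difference of -0.36. The difference of 0.69 at 2 h was the only one of 0.5 or more among the 37 genes at that time, against 1.77 percent of all genes. The 5 h difference exceeded that of the early times by 1.29 (SE 0.74), which did not pass except without both arrays numbered 4 (1.38, adjusted p = 0.000413 in limma); against 16 h it was not tested.

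Iron uptake and storage genes did not pass at 5 h. Tfrc, the transferrin receptor, was at 9.58, 8.84, 8.90 and 8.58 in control and at 8.84, 9.03, 8.48 and 8.24 in deprived cells. The deprived array was lower in 3 of 4 same-numbered pairs, and the difference was -0.33 (SE 0.23), with an adjusted p of 0.713 in limma and of 0.0777 in the blocked fit. It was lower in deprived cells at 1, 2 and 16 h by 0.38, 0.33 and 0.28, and higher by 0.13 at 3 h. The 95 percent interval at 5 h ran from -0.84 to 0.18, and in the blocked fit from -0.58 to -0.07, before adjustment over all genes.

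The ferritin heavy chain gene Fth1 was at 13.52, 13.41, 13.35 and 13.08 in control and at 13.34, 13.33, 13.29 and 13.15 in deprived cells. The light chain gene Ftl1 was at 13.28, 13.09, 13.06 and 12.58 and at 13.02, 13.01, 13.00 and 12.65. Both were lowest on array 4 in each group. Their differences were -0.06 (SE 0.10; 95 percent interval from -0.29 to 0.17) and -0.09 (SE 0.15; -0.42 to 0.25). Ferritin genes have near-identical copies in the mouse genome, so their rows may collect signal from more than 1 locus. Slc11a2, the carrier DMT1 that brings iron out of endosomes, was at 9.11, 8.96, 8.91 and 9.31 in control and at 9.12, 8.86, 8.88 and 9.11 in deprived cells, with overlapping groups. It differed by -0.08 (SE 0.11; -0.33 to 0.16), and by -0.11, -0.13, 0.02 and 0.07 at 1, 2, 3 and 16 h.

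The 2 copper genes did not pass either. Slc31a1, the high-affinity copper importer CTR1, was at 10.21, 10.07, 9.83 and 10.47 in control and at 10.30, 10.26, 10.22 and 10.67 in deprived cells. The deprived array was higher in each same-numbered pair, by 0.09, 0.19, 0.40 and 0.20, while the groups overlapped. Its difference was 0.22 (SE 0.15; adjusted p = 0.704 in limma), and it passed with the block (adjusted p = 0.0449) but not without both arrays numbered 4 (adjusted p = 0.162). The alternatives spanned 0.027 to 0.932.

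Slc31a2, a relative of CTR1 found in endosomes, had differences of both signs at the single-array times. It was at 10.50, 10.54, 9.90 and 11.00 on control arrays at 1, 2, 3 and 16 h and at 10.01, 10.86, 10.55 and 11.51 on deprived arrays. The differences were -0.50, 0.32, 0.64 and 0.50, and at 5 h the difference was 0.07 (SE 0.20). The 4 control arrays of 5 h spanned 10.51 to 11.07, which is wide beside these differences.

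The 3 magnesium carriers of the Slc41 family, Slc41a1, an exchanger of the plasma membrane, Slc41a2 and Slc41a3, differed by -0.11 (SE 0.08), 0.16 (SE 0.13) and 0.03 (SE 0.07) at 5 h. None passed, with or without the block. At the single-array times their differences ran from -0.33 to 0.24.

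At the times with 1 array per group, no metal gene reached an absolute log2 difference of 1 at 1, 2 or 3 h, against 0.125, 0.181 and 0.135 percent of all genes. At 16 h 2 of the 37 did, Slc30a1 and Slc39a13, against 4.93 percent of all genes. Counted from 0.5 on unrounded values, no metal gene was reached at 1 h (0.782 percent of all genes), Slc31a2 alone at 3 h (1.94 percent), and Slc31a2 and Slc39a10 joined the others at 16 h, 4 of 37 against 18.3 percent. The mean difference over the 4 times, tested in limma with a term for time, passed for 0 of the 37 genes and 0 of all genes (0 percent). At an unadjusted p of 0.05 it was 0 of the 37 against 6.24 percent of all genes. This mean was 0.14 (SE 0.23) for Slc30a1, 0.20 (SE 0.09) for Slc30a4 and -0.19 (SE 0.13) for Slc39a10. For Slc30a1 the mean joins early differences below 0 and a late difference above it. The genes taken as a check of the deprivation did not pass this test either. Their means ran from 0.53 (Asns) to 1.54 (Chac1), with adjusted p-values of 0.466 to 0.808 in limma. A difference that grows with time widens the spread that this test uses.

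**Figure D4:**
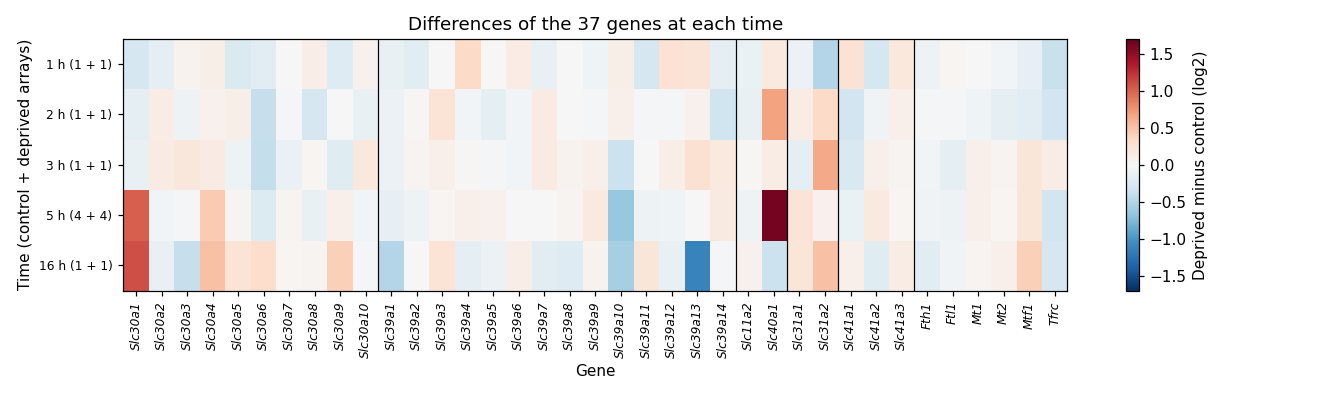
Deprived minus control on the log2 scale (colour) for each of the 37 genes (horizontal axis, grouped by metal) at each time (vertical axis, with the numbers of control and deprived arrays). Slc30a1 and Slc30a4 are higher and Slc39a10 lower at both 5 and 16 h, Slc40a1 is higher at 5 h and not at 16 h, and Slc39a13 is lower at 16 h.

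Further genes of the same metals were taken from lists. Of 41 measured genes of iron handling outside the set, 2 rose (2.41 percent of all genes) and 1 fell (1.7 percent) at 5 h. The median difference of the 41 genes was 0.02. With the block 7 were higher (8.22 percent of all genes) and 5 lower (10 percent). The higher were Steap1, Hmox1, Slc25a37, Flvcr1, Ncoa4, Fbxl5 and Slc25a28, and the lower Bola3, Epas1, Cisd1, Aco1 and Iscu, some of them named after their values were seen. Slc25a37, mitoferrin, which brings iron into mitochondria, rose by 0.64 (SE 0.12; adjusted p = 0.0153 in limma), and Flvcr1, known as a heme exporter, by 0.47 (SE 0.08; adjusted p = 0.0116). Bola3, which helps to deliver iron-sulfur clusters in mitochondria, fell by 0.60 (SE 0.07; adjusted p = 0.00134). The call of Slc25a37 ended without deprived array 1 (0.58, adjusted p = 0.0612), 2 (0.64, adjusted p = 0.0539) or 3 (0.62, adjusted p = 0.0602), and that of Flvcr1 ended without deprived array 1 (0.46, adjusted p = 0.0533) and with the mean of a gene's rows (0.38, adjusted p = 0.063).

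Among the iron genes that did not pass, Steap1, a metalloreductase family gene, and Hmox1, which breaks down heme and frees its iron, had wide spread. Steap1 was at 8.57 (SD 0.77) in control and 9.79 (SD 0.56) in deprived cells at 5 h, a difference of 1.21 (SE 0.38; adjusted p = 0.14 in limma, 3.11e-05 with the block). Hmox1 had means of 9.99 (SD 0.79) and 10.88 (SD 0.37) and differed by 0.90 (SE 0.35, adjusted p = 0.262 in limma, 0.000628 with the block). Array 4 was lowest in each group, at 7.46 and 8.98 for Steap1 and at 8.9 and 10.35 for Hmox1. Without both arrays numbered 4, Steap1 differed by 1.11 (adjusted p = 0.000227 in limma) and Hmox1 by 0.71 (adjusted p = 0.0091). In that fit 13.5 percent of all genes passed. At 16 h Steap1 was higher by 1.86 and Hmox1 by 1.43, while Epas1, a hypoxia factor whose message carries an iron response element, was lower by 3.41, each from 1 array per group. These 3 of the 41 genes reached an absolute difference of 1 at 16 h, against 4.93 percent of all genes.

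Of 14 measured genes of copper handling none passed at 5 h, and the median was -0.04. Over all genes 4.11 percent passed, a share that also stands beside the zinc and magnesium counts below. With the block 2 copper genes were lower (Sod3 and Cox19), against 10 percent of all genes. At 16 h Lox, a copper-dependent collagen cross-linking enzyme, was lower by 1.80, and Sco1, which delivers copper to cytochrome oxidase, was higher by 1.05. These 2 of the 14 genes reached an absolute difference of 1, against 4.93 percent of all genes, with 1 array per group. Of 14 further zinc-related genes 1 passed, Znfx1, a zinc finger helicase that carries no zinc across membranes; it fell by 0.41 (SE 0.08; adjusted p = 0.0171 in limma), which ended without control array 1 (-0.40, adjusted p = 0.0648), 2 (-0.43, adjusted p = 0.0518) or 3 (-0.41, adjusted p = 0.0501) and without deprived array 1 (-0.39, adjusted p = 0.076) or 2 (-0.38, adjusted p = 0.0643). Of 23 further magnesium genes 1 passed. Cnnm4, a magnesium carrier of the CNNM family, rose 1.69-fold (log2 0.76, SE 0.09; adjusted p = 0.00139 in limma). At 16 h it was higher by 0.86, again from 1 array per group. With the block, Trpm7, a magnesium-permeable channel (0.25, adjusted p = 0.0203 in limma), and Cnnm2 (0.23, adjusted p = 0.0224) were higher too. None was lower, and both of these genes were named after their values were seen. Over all genes 8.22 percent were higher and 10 percent lower with the block.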

How the data were processed

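RNA of 16 samples was measured on Affymetrix whole-transcript arrays. The deposited table holds log2 values made by the authors with RMA, per the submitters' processing notes, which also name limma; settings and versions are not given in the sources used here. The log2 values were used as deposited. RMA equalizes the arrays' distributions, so a shift shared by most genes would not be seen. Differences at low and very high levels can be compressed, at low levels by cross-hybridization and background.

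Of 35556 rows, 21789 had 1 gene symbol, 1621 had several and 12146 had none. Symbols were updated through Entrez identifiers for 21698 rows and kept for 91. The row with the highest mean stood for each of 999 genes with several rows, which left 19938 genes.

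The 5 h groups were compared in limma 3.58.1 (R 4.3.3; lmFit, eBayes) over all genes, with Benjamini-Hochberg adjustment and a threshold of 0.05. The other times gave single differences and 1 test of their mean, with time as a factor. The spread in that test is how the difference varied between the times. In the test of 5 h against the early times, variation between the early times is part of the spread. The fits were tested on simulated data with independent noise on each array. These data held no shift shared by the arrays numbered 4, so the fits were not tested under such a shift. The metal genes, the other lists and the rule for named genes (members that passed with or without the block, members past a difference of 1, the storage and main carrier genes, and list genes that passed or reached 1 at 16 h) were chosen with earlier results of these data known.

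Control and deprived 5 h samples share replicate numbers. Deviations from the group means over all genes correlated between same-numbered samples at 0.354, 0.584, 0.467 and 0.896 for numbers 1 to 4, all above 0.1. They were therefore taken to pair the samples, and the blocked value is given where it changes a call. Samples of different numbers among 1 to 3 also correlated, at 0.133 to 0.68. Without number 4 the same-numbered correlations were 0.193, -0.00305 and -0.2, so the pairing rests on number 4 against the rest. A pairing within numbers 1 to 3 was not shown. Alternatives were the block, leaving out arrays or times, array weights, a further quantile normalization, median centring, a filter on low levels, averaging the rows of a gene, testing all rows and another variance prior. Promoter windows (250 bases before to 50 after the start) came from RefSeq, GRCm38.p6.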

Additional observations from a re-analysis of the deposited data

Results flagged for a closer look

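In 9 of 74 groups of 4 arrays at 5 h, 1 array was separated from the other 3 by more than Dixon's 95 percent critical value, where chance separates about 1 group in 20. That was 12.2 percent of these groups, against 11.6 percent of the same groups over all genes. Array 4 was the separated array in all of these groups except that of Mtf1. Slc40a1 was separated in both groups, with array 4 at 9.41 in control cells (others 7.29 to 7.40) and at 10.78 in deprived cells (others 8.91 to 9.13). Mt2 was separated in both groups too, with array 4 at 13.18 in control cells (others 13.57 to 13.59) and at 13.26 in deprived cells (others 13.56 to 13.60). Array 4 was low for Ftl1 in deprived cells (12.65, others 13.00 to 13.02) and for Slc39a6 in control cells (9.59, others 10.00 to 10.02). It was high for Slc30a5 in deprived cells (10.27, others 9.73 to 9.81) and for Slc39a9 in control cells (10.13, others 9.79 to 9.85). Mtf1 was high on control array 1 (9.18, others 8.98 to 8.99).

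The difference of Slc30a1 at 5 h exceeded its mean difference at 1, 2 and 3 h by 1.20 (SE 0.15; adjusted p = 0.03 in limma), in a test chosen after the data were seen. Over its alternatives the adjusted p ran from 0.00036 to 0.232.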

How the results depend on the processing

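Slc30a1, Slc30a4 and Slc39a10 passed at 5 h under each of the 17 alternatives run. The count of metal genes that passed, 3 as reported, was 6 with the replicate block (4 higher, 2 lower), 5 without both arrays numbered 4 (2 lower) and 10 with array weights (8 higher, 2 lower); the genes added by the block were Slc30a6, Slc31a1 and Slc40a1, and array weights added Mtf1, Slc39a9, Slc39a14 and Slc41a2 to these. The count for the 5 h difference against the early times, 1 as reported, was 0 with all rows tested, without the 1 h arrays and without the 2 h arrays, 3 without both arrays numbered 4 (2 higher, 1 lower), and 0 to 1 leaving out 1 replicate, where 0.01 to 0.426 percent of all genes passed. As reported, 0.176 percent of all genes passed that test. With all rows tested, or without the 1 h or 2 h arrays, the share of all genes is not given here, so these counts have no background. Counted from 0.5 in place of 1, single-array differences held 1 metal gene at 2 h, 1 at 3 h, and 4 for 16 h. The cause of these changes was not tested.

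Signs turned only for differences that did not pass. Without both arrays numbered 4, Mt1 was at -0.02, Slc39a6 at -0.07 and Slc39a7 at 0.04. With array weights, Mt2 was at -0.00572, Slc11a2 at 0.00767, Slc30a2 at 0.04, Slc39a6 at -0.07 and Slc39a7 at 0.01. A further quantile normalization gave 0.00379 for Slc30a3 and -0.01 for Slc39a13, and median centring 0.02 for Slc39a7. The mean over the other times was -0.19 for Slc30a1 without 16 h and -0.02 for Slc40a1 without 2 h. Leaving out 1 replicate at 5 h gave ranges across 0 for Ftl1 (-0.22 to 0.00557), Mt2 (-0.07 to 0.11), Slc30a10 (-0.14 to 0.03), Slc30a2 (-0.1 to 0.06), Slc30a3 (-0.1 to 0.06), Slc30a5 (-0.09 to 0.21), Slc30a7 (-0.03 to 0.15), Slc31a2 (-0.06 to 0.27), Slc39a12 (-0.17 to 0.03), Slc39a13 (-0.17 to 0.24), Slc39a3 (-0.00864 to 0.06), Slc39a4 (-0.01 to 0.19), Slc39a6 (-0.09 to 0.05), Slc39a7 (-0.19 to 0.23) and Slc39a8 (-0.03 to 0.12).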
